A study of Homo sapiens with 3 samples.

Results

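The genes described here encode the proteins of the cytosolic ribosome. They were chosen by symbol alone: RPL or RPS followed by a number, with an optional A, L, X, Y or L1 ending, plus the stalk genes and RPSA where present, without the RPS6 kinase genes and without pseudogenes. The count table held 68 such genes among 15466 gene symbols, of which 28 encode proteins of the small (40S) subunit, 38 proteins of the large (60S) subunit and 2 the stalk proteins RPLP1 and RPLP2 of the large subunit. RPSA and RPLP0 were absent under these symbols, as were others such as RPL6 and RPL9. Sums and shares below therefore cover only the genes found. The study used 22Rv1, a human prostate cancer cell line, and its design text names the effect of MLPH on signalling pathways as the question. MLPH encodes melanophilin, which couples Rab27a to myosin Va. The cells received 20 μg of MLPH plasmid, coding for transcript V1 in 1 sample and for transcript V4 in the other, and were treated for 48 h. The study's control was a sample with empty vector. The column left over in the table names no transfection and was not tied to that sample, so the empty vector is not analysed here. The design text mentions a technical replicate, but the table names 1 column for V1 and 1 for V4, and nothing below has a replicate check. Intervals of ratios are 95% exact (Clopper-Pearson) binomial intervals, and all intervals cover counting error only.

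The ribosome reads mRNA on its small subunit and joins amino acids on its large subunit, and each particle holds a single copy of nearly every ribosomal protein. Cells make these proteins in step, and much of a growing cell's mRNA is spent on them. Most ribosomal protein mRNAs begin with a C followed by a run of pyrimidines, the terminal oligopyrimidine (TOP) tract. Through that tract the kinase complex mTORC1 and the RNA-binding protein LARP1 control how well the mRNAs are translated and how long they last. MYC, a driver of many prostate cancers, raises ribosome production.

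The tract is shown first because it is what these genes share in sequence and the symbol rule did not use it. Promoter sequences from RefSeq (GRCh38.p14) were matched for 50 of the 64 genes that passed the filter on low counts described below. In 37 of those 50 (74%) a C lay at an annotated transcript start and was followed by at least 4 more pyrimidines, read on the transcribed strand. The same was found for 7.13% of 6364 genes that passed the filter and for 4 of 57 mitochondrial ribosomal protein genes (7.02%). With the C allowed within 10 bases of the start, the shares were 90% and 40.4%. A match describes the sequence only. Below are start-site windows of the most abundant member, of members low and high in the V4 library, and of the pair RPS27 and RPS27L, each from 35 bases before the annotated start to 25 bases into the transcript and written 5′ to 3′. Capitals mark a run of at least 5 pyrimidines that begins with C within 10 bases of the start, on either side of it. The count files give no coordinates, so these positions come from RefSeq alone.
RPS6 (chr9:19380212-19380271, minus strand): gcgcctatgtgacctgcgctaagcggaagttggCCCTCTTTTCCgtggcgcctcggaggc
RPL28 (chr19:55385897-55385956, plus strand): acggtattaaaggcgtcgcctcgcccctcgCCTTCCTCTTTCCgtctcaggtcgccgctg
RPS19 (chr19:41860220-41860279, plus strand): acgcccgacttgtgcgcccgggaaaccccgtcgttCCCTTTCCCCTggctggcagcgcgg
RPS9 (chr19:54200823-54200882, plus strand): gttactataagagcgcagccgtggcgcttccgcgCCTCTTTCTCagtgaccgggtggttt
RPS24 (chr10:78033828-78033887, plus strand): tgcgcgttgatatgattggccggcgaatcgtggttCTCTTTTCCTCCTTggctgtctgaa
RPS3A (chr4:151099593-151099652, plus strand): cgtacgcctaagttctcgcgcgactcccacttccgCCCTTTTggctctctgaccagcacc
RPL31 (chr2:101002254-101002313, plus strand): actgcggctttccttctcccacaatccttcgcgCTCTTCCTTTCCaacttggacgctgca
RPS27 (chr1:153990727-153990786, plus strand): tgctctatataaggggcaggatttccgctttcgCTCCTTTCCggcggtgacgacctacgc
RPS27L (chr15:63157453-63157512, minus strand): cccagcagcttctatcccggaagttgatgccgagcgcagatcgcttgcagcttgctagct

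The run was present in windows of genes at both ends of the V4 over V1 order. RPL28 and RPS19, among the lowest, have runs of 13 and 11 pyrimidines, and RPL31 and RPS24, among the highest, have runs of 12 and 14. RPS27 has a run of 9, and its close relative RPS27L has none of at least 5 that begins within 10 bases of the start. The log2 ratio of V4 over V1, introduced below, had a median of -0.16 (range -0.57 to 0.47) over the 37 genes with the tract at a start and of -0.25 (range -0.74 to 0.23) over the 13 without.

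The libraries held 9248734 (V1) and 9604272 (V4) counts on named symbols. Ratios were scaled by TMM, and genes were kept at a mean of at least 1 CPM (counts scaled to library size) over both libraries, which left 8823 genes. MLPH itself had 7219 counts with V1 and 7773 with V4, which does not tell the transcripts apart. The 6 luminal prostate markers matched summed to 580 CPM with V1 and 561 CPM with V4. All 6 were above 0 in both, with HOXB13 at 621 and 536 counts and KRT8 at 2085 and 1636, but KLK2 had 8 and 13 and TMPRSS2 1 and 2. The 2 epithelial markers, EPCAM and CDH1, summed to 907 and 1060 CPM. Of fibroblast markers, 4 were matched and summed to 167 CPM with V1 and 5.0 CPM with V4. COL1A2 had 976 counts with V1 and 4 with V4, and COL3A1 and PDGFRB were at 0 with V4 (526 and 6 with V1). LUM went the other way, with 33 and 44 counts. The 3 leukocyte markers matched summed to 9.3 and 6.14 CPM with PTPRC and CD3E at 0 in both, and the 2 endothelial markers to 0 and 0.625 CPM, with CDH5 at 0 in both. The part of these markers in the results below was not tested. In bulk RNA of this kind, fewer cells of a type and less RNA per cell cannot be told apart.

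The ribosomal protein genes found in the table held a smaller share of the V4 library than of the V1 library. Together the 68 genes had 268688 counts in the V1 library, 2.91% of all counts (Wilson 95% interval 2.894 to 2.916). In the V4 library they had 237402 counts, 2.47% (interval 2.462 to 2.482). The ratio of the shares was 0.851 (interval 0.846 to 0.856). It was 0.86 for the 40S genes, 0.843 for the 60S genes and 0.798 for the stalk genes, so both subunits and the stalk lay on the same side. The 5 most abundant genes, RPS6, RPL27 and RPL23 among them, made up 0.896% of the V1 library and 0.787% of the V4 library. Without them the ratio was 0.839. The 15 mitochondrially encoded genes in the table moved the other way, from 19% to 21.3% of counts (their part in the lower share was not tested), and with them left out of the totals the ribosomal protein share was 3.59% against 3.14%, a ratio of 0.876.

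The levels of single genes were far from equal. Divided by coding length so that genes can be compared, the 64 kept genes ranged from 3.84 to 3920 CPM per kilobase (mean of both libraries), with a median of 344. RPL30 was highest at 3920 CPM per kilobase, followed by RPS21 at 3750, RPL27 at 3710, RPL37A at 3670 and RPL23 at 3660. These 5 lay close together. RPL7 was lowest at 3.84, and RPL36A (4.33), RPL21 (6.72), RPL19 (9.34), RPS29 (9.77) and RPL13 (9.82) were also under 10 CPM per kilobase. These, too, are core proteins of the particle. In counts, RPL21 had 25 with V1 and 36 with V4, and RPS6 had 20336 and 18908. Another 4 genes did not pass the filter: RPL15, a core 60S protein (5 and 3 counts, V1 first), and the copies RPL7L1 (2 and 2), RPL3L (1 and 2) and RPL10L (2 and 0).

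Low levels went with annotated copies and with multiple transcripts. GENCODE v29 lists 66 pseudogenes named for RPL21 and 61 for RPL7, against 3 for RPS21 and 1 for RPL27. The median level was 512 CPM per kilobase over the 30 kept genes with 0 to 5 such pseudogenes, 418 over the 21 with 6 to 19, and 102 over the 13 with 20 or more. Exceptions ran both ways, since RPS3A with 38 pseudogenes stood at 708 CPM per kilobase and RPS14 with 3 at 16.9. RPS14 and RPL13 each have 3 RefSeq transcripts and RPL19 has 2. The median was 709 over the 35 genes with 1 RefSeq transcript and 168 over the 29 with more. The 14 genes with 1 transcript, 0 to 5 pseudogenes and no L in their name had a median of 1340, and 1 of them, RPS28, lay under 100. Spearman's rho of the level with the number of pseudogenes was -0.3, and with the number of transcripts -0.24, over 64 genes that share both libraries. How reads that match several places or transcripts were counted is not stated in what was used, and its part in these levels was not tested.

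**Figure D1:**
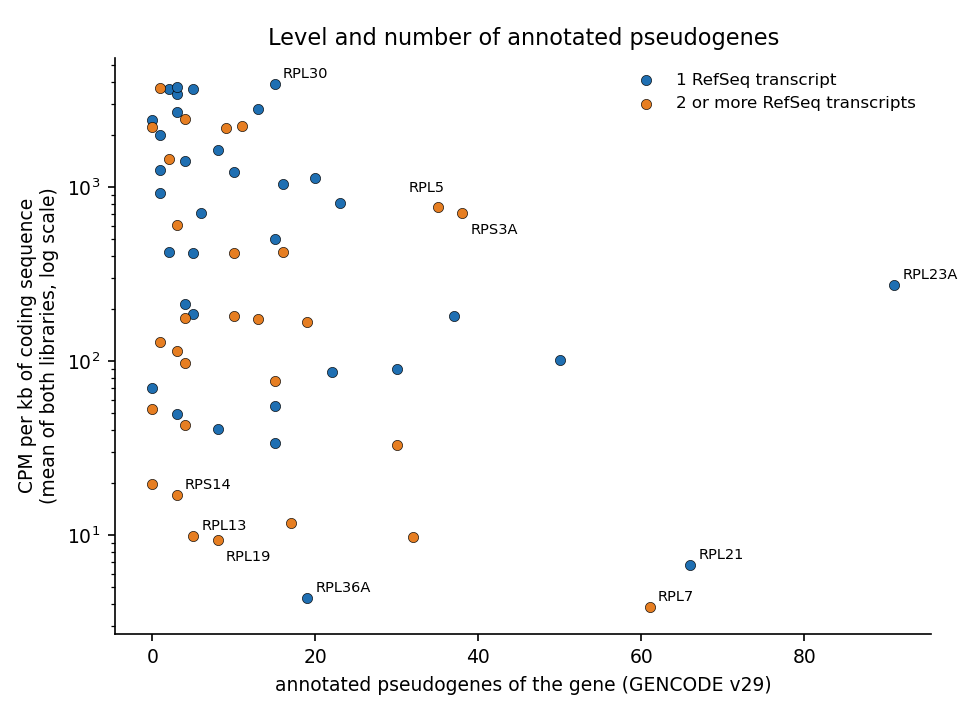
Level of each of the 64 kept ribosomal protein genes (vertical log axis, CPM per kilobase of coding sequence, mean of both libraries) against the number of pseudogenes annotated for it (horizontal axis); colours separate genes with 1 RefSeq transcript from those with 2 or more. RPL21 and RPL7, with 66 and 61 pseudogenes, lie under 10 CPM per kilobase, and the 30 genes with 0 to 5 pseudogenes spread from 9.82 to 3750.

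Between the libraries, most ribosomal protein genes were slightly lower with V4 than with V1. The ratio was below 1 for 53 of 64 kept genes (82.8%) and above 1 for 11, against 50.4% below 1 over all 8823 kept genes. The median log2 ratio (with a prior count of 2) was -0.18 for the ribosomal protein genes, which is 1.13-fold lower, and 0 over all kept genes. At an interval that excluded 1, 42 of the 64 (65.6%) were lower and 3 (4.69%) were higher in the V4 library. Over all kept genes 21% were lower and 19.9% higher by that rule. It passes deep counts more easily than shallow ones, and among the 1725 genes at a mean of at least 100 CPM it passed 34.5% as lower and 35.6% as higher. Large differences were rare: 4 of 64 genes (6.25%) were at least 1.5-fold lower with an interval that excluded 1, near the 7.1% of all kept genes, and 0 were at least 1.5-fold higher, against 5.51%. These 4, which include RPL19, RPL39L and RPS28, all had a mean under 1000 counts. The 1.5-fold rule passes shallow genes more often. Among the 1725 genes at a mean of at least 100 CPM it called 10 (0.58%) lower and 10 higher. Among the 37 members at a mean of at least 1000 counts it called 0 lower and 0 higher. With the trend of the ratio on transcript length removed, the median came to -0.07, with 26 intervals below 1 and 8 above, beside 20.1% and 17.3% of all genes so corrected. Of the 45 members with an interval on either side of 1, 28 kept that call under this correction and 17 did not.

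**Figure D2:**
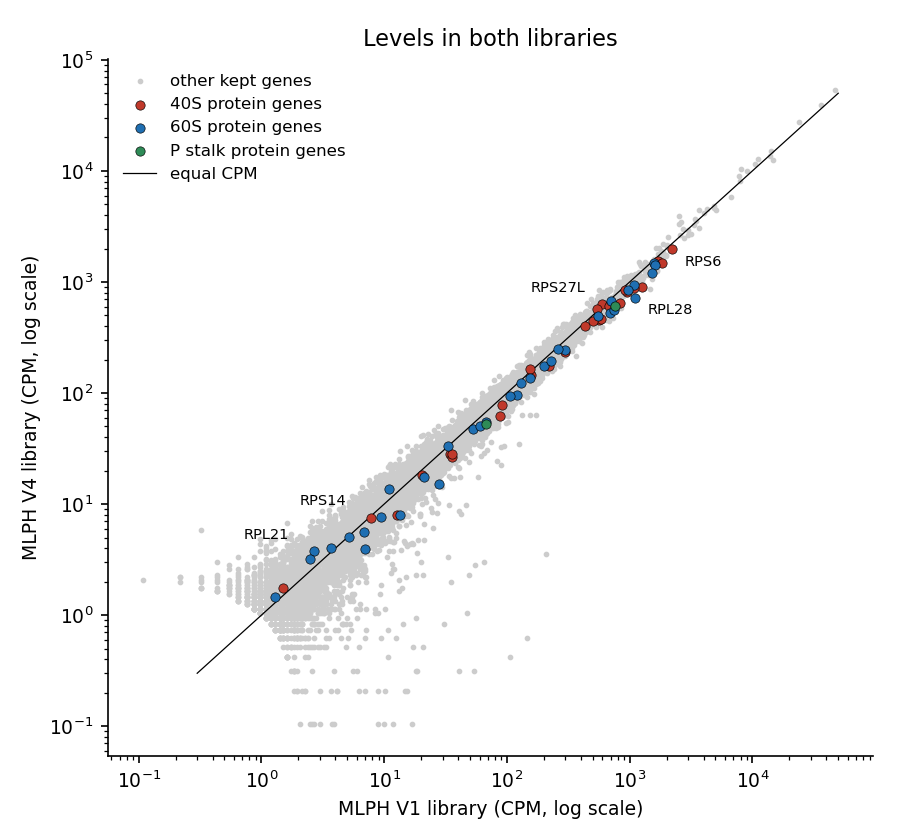
CPM of each gene in the V1 library (horizontal) and the V4 library (vertical), both on log axes and without TMM scaling; grey points are the other kept genes with at least 1 count in each library, coloured points the ribosomal protein genes by subunit, and the line marks equal CPM. Most ribosomal protein genes lie just below the line, RPL28 farther from it, and RPS27L and a few genes of low counts such as RPL21 lie above it.

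Depth set how well each ratio was known. The 37 genes with a mean of at least 1000 counts held 97.1% of the ribosomal protein counts in the V1 library. Of these 37 genes, 34 were below 1, and 29 (78.4%) had an interval below 1. Above 1 were 3 (8.11%), all 3 with an interval above 1. Over all kept genes at a mean of at least 100 CPM, 34.5% had an interval below 1 and 35.6% above. The log2 ratios of the 37 ranged from -0.57 to 0.13 with an SD of 0.15, against a median counting error of 0.027. The interval lay below the median ratio of 0.883 for 13 of the 37 and above it for 12. These intervals hold counting error only, and how far single genes vary between libraries of the same kind was not measured. Over the 27 shallower genes the median was -0.22 and 14 intervals included 1.

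Among the 40S genes, 20 of 28 (71.4%) had an interval below 1 and 3 (10.7%) above, with a median log2 ratio of -0.2. Over all kept genes the shares were 21% and 19.9%, and at 100 CPM or more 34.5% and 35.6%. RPS19, the gene most often mutated in Diamond-Blackfan anaemia, had 11532 counts with V1 and 8597 with V4. That was 1.36-fold lower (interval 1.32 to 1.4), the largest gap among 40S genes of at least 1000 counts on average. RPS9, a protein that binds early to the small subunit's rRNA, had 813 counts against 595, 1.39-fold lower (interval 1.24 to 1.54). RPS21 had 7747 against 6213, 1.26-fold lower (interval 1.22 to 1.31). RPS28, at 117 against 76, was 1.56-fold lower, with an interval from 1.16 to 2.11 that reflects its few counts.

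RPS6, which S6 kinases phosphorylate downstream of mTORC1, had the most counts of all members and was 1.09-fold lower (interval 1.07 to 1.11). With the transcript length trend removed its log2 ratio went from -0.12 to -0.01 and the call ended. RPS2, with 10094 against 8467 counts, was 1.21-fold lower (interval 1.17 to 1.24). The 5 genes of this subunit whose interval included 1 were RPS13, RPS14, RPS20, RPS27 and RPS29. RPS3, RPS7, RPS12, RPS15, RPS16, RPS18, RPS23, RPS25 and RPS26 were lower by their interval, from 1.11-fold for RPS25 to 1.3-fold for RPS3. The transcript length correction ended the calls of RPS7, RPS18, RPS25 and RPS26, and the GC correction that of RPS15.

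The 3 genes higher in the V4 library by their interval were all 40S genes. RPS3A had 5051 counts with V1 and 5533 with V4, a ratio of 1.08 (interval 1.04 to 1.12). RPS24, another gene mutated in Diamond-Blackfan anaemia, had 1413 against 1568, a ratio of 1.09 (interval 1.02 to 1.18). RPS27L, a p53-inducible relative of RPS27, had 5456 against 6058, a ratio of 1.1 (interval 1.06 to 1.14). Each of these gaps is smaller than that of RPS19 on the other side. With the transcript length trend removed, the log2 ratio of RPS27L was -0.03 in place of 0.13. Its transcript length in GENCODE is 6434 bases for a coding length of 252. With the coding length trend removed the log2 ratio of RPS27L was 0.23, and its call held. The calls of RPS27L and RPS3A ended with the GC trend removed, and that of RPS24 with scaling by total counts.

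Among the 60S genes, 20 of 34 kept genes (58.8%) had an interval below 1 and 0 above, with a median log2 ratio of -0.16. The shares over all kept genes were 21% and 19.9%, and 34.5% and 35.6% at 100 CPM or more. RPL28 had 10158 counts with V1 and 6949 with V4, 1.48-fold lower (interval 1.44 to 1.53). It was the lowest of the ribosomal protein genes with a mean of at least 1000 counts. RPL19 had 64 against 38, 1.71-fold lower (interval 1.13 to 2.62). RPL37 had 6884 against 5366, 1.3-fold lower (interval 1.25 to 1.35), and RPL35 had 6351 against 5055, 1.27-fold lower (interval 1.23 to 1.32). RPL35 lies near the exit of the tunnel through which the new peptide leaves.

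The 60S genes with the most counts beside RPL28 were RPL27, RPL23, RPL30 and RPL37A. RPL27 had 14998 counts with V1 and 13538 with V4, 1.12-fold lower (interval 1.1 to 1.15). RPL23, on the face of the subunit that meets the 40S subunit, had 14745 against 14187, 1.05-fold lower (interval 1.03 to 1.08). RPL37A had 10018 against 9028, 1.13-fold lower (interval 1.09 to 1.16). RPL30 had 13947 against 11510, 1.23-fold lower (interval 1.2 to 1.26). High counts thus went with ratios on both sides of the members' median. The call ended for RPL27 with the transcript length trend removed (log2 ratio -0.01) and for RPL23 with the coding length trend removed (-0.01).

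RPL5 and RPL11 form, with 5S rRNA, the particle that binds MDM2 when ribosome assembly fails. RPL5 had 6517 counts with V1 and 6405 with V4, a ratio of 0.969 with an interval from 0.936 to 1.0. RPL11 had 624 against 526, 1.2-fold lower (interval 1.07 to 1.35). As a ratio, RPL11 reached up to 0.935, just under the lower bound of RPL5, and the difference between the genes was not tested. With the transcript length trend removed, the call of RPL11 ended (log2 ratio -0.12), and RPL5 was higher by its interval (0.1). The 60S genes with the highest ratios had few counts. RPL21 (25 against 36, V1 first), RPL7 (23 against 31) and RPL31 (102 against 131) had ratios of 1.42, 1.33 and 1.27, each with an interval that included 1. So did the intervals of RPL12, RPL13, RPL13A, RPL22, RPL22L1, RPL23A, RPL26L1, RPL35A, RPL36A, RPL39 and RPL5. RPL3 (2096 against 1864), RPL4, RPL7A, RPL10 (1110 against 918), RPL10A, RPL18, RPL24, RPL27A and RPL29 were lower by their interval, from 1.09-fold for RPL29 to 1.23-fold for RPL10. The transcript length correction ended the calls of RPL3, RPL7A, RPL18, RPL24 and RPL29, and the coding length correction that of RPL27A. RPL31 was higher by its interval under both length corrections.

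The stalk genes lay close together. The stalk recruits elongation factors to the ribosome, and its P proteins are present in more than a single copy. RPLP2 had 7059 counts with V1 and 5860 with V4, 1.22-fold lower (interval 1.18 to 1.26). RPLP1 had 631 against 510, 1.25-fold lower (interval 1.11 to 1.41). RPLP1 thus had far fewer counts than RPLP2, while their intervals overlap.

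**Figure D3:**
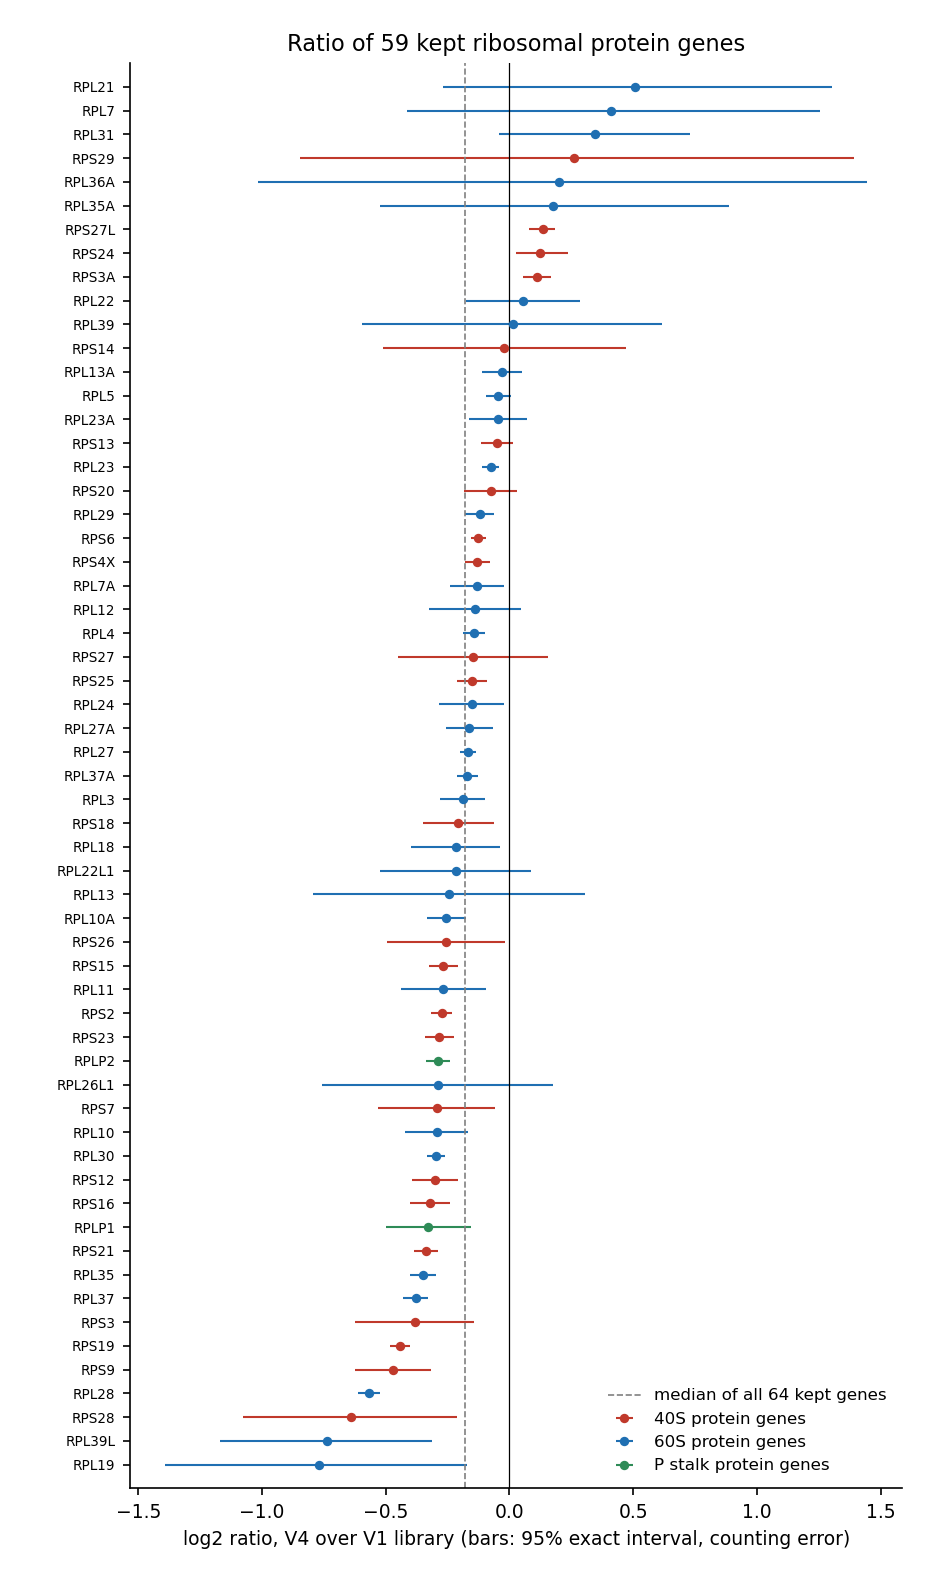
Log2 ratio of V4 over V1 (horizontal axis, TMM-scaled, no prior) for 59 of the 64 kept ribosomal protein genes, sorted, with 95% exact intervals of counting error; colours give the subunit and the dashed line the median of -0.18 over all 64. Of the 59 points, 48 lie left of 0, and of the 11 to the right only RPS3A, RPS24 and RPS27L have intervals that leave out 0.

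Several members are copies of another ribosomal protein gene. RPS27L had 28.7 counts per count of RPS27 with V1 and 34.8 with V4, and RPS27 itself had 190 and 174 counts. GENCODE lists 15 pseudogenes of RPS27 and 0 of RPS27L, and RefSeq 3 transcripts of RPS27 and 1 of RPS27L. The odds ratio of the pair between the libraries was 1.21 (interval 0.978 to 1.5). RPL22L1, which can stand in for RPL22, had 195 counts with V1 and 170 with V4, and RPL22 had 305 and 321. The odds ratio was 0.828 (interval 0.634 to 1.08), so a shift between RPL22 and RPL22L1 was not detectable at this depth.

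RPL39L, a copy known mainly from testis and from tumours, had 125 counts with V1 and 76 with V4, 1.67-fold lower (interval 1.24 to 2.25). Its parent RPL39 had 48 and 49 counts, and the odds ratio of RPL39L over RPL39 was 0.597 (interval 0.355 to 1.0). RPL26L1 had 88 against 73, with an interval of the ratio from 0.592 to 1.13. RPS4X, on the X chromosome, had 6277 counts against 5817, 1.09-fold lower (interval 1.06 to 1.13), a call that ended with the transcript length trend removed (log2 ratio -0.03). RPS4Y1, its Y-linked partner, which the symbol rule does not take, had 8974 against 9076, a ratio of 0.998 (interval 0.969 to 1.03). The odds ratio of RPS4Y1 over RPS4X was 1.09 (interval 1.04 to 1.14).

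Of other ribosomal proteins whose symbols fall outside the rule, FAU, GNB2L1 and RPL36AL were lower too, while RPS4Y1 was not. FAU, which encodes a fusion of a ubiquitin-like protein with RPS30, had 11576 counts with V1 and 9586 with V4, 1.22-fold lower (interval 1.19 to 1.26). GNB2L1, also named RACK1, a signalling scaffold on the 40S subunit, had 21204 against 19530, 1.1-fold lower (interval 1.08 to 1.12). RPL36AL had 2698 against 2341, 1.17-fold lower (interval 1.11 to 1.24).

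Genes around the ribosome were read from lists of related function, whose counts stand beside 21% below and 19.9% above over all kept genes, or 34.5% and 35.6% at 100 CPM or more. No length or GC trend was removed from the list values given here and below. The part of length or GC content in differences between lists was not tested. Of 65 kept mitochondrial ribosomal protein genes, which build the separate ribosome of mitochondria, 24 (36.9%) had an interval below 1 and 9 (13.8%) above, with a median log2 ratio of -0.08. Their most abundant gene, MRPL51, had 4875 counts with V1 and 4524 with V4, 1.09-fold lower (interval 1.05 to 1.14). MRPL35 was their lowest at 105 against 71, and MRPL39 their highest at 7 against 17, with an interval that included 1. Of 6 kept genes on the elongation factor list, which also holds TPT1, 3 (50%) were below and 1 (16.7%) above, with a median of -0.16. EEF2, which moves the ribosome along the mRNA, had 61738 against 56449, 1.11-fold lower (interval 1.1 to 1.12), while EEF1A1, which delivers aminoacyl-tRNA, had 31925 against 33936, a ratio of 1.05 (interval 1.03 to 1.06). Both mRNAs carry a TOP tract. EEF1G was the lowest of the elongation factor list at 3904 against 3190. EEF1E1 was the highest at 250 against 268, with an interval that included 1. The 12 kept TOP mRNAs outside the symbol rule had 6 (50%) below and 3 (25%) above, with a median of -0.14. FAU and GNB2L1, given above with the ribosomal proteins, are among the 12, and both had an interval below 1. Ratios of the 12 ran from 0.673 for BTF3 (129 against 88) to 1.27 for EIF3L (14 against 18). The interval of EIF3L included 1.

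Initiation factors were near the share of all kept genes. Of 29 kept genes, 6 (20.7%) had an interval below 1 and 8 (27.6%) above, with a median of 0.03. EIF3A, their most abundant, had 18767 counts with V1 and 20726 with V4, a ratio of 1.09 (interval 1.07 to 1.11), and EIF5A had 2145 against 1507, 1.44-fold lower (interval 1.35 to 1.54). EIF4E, the cap-binding factor, was highest at 9 against 21. Ribosome biogenesis genes had 13 of 41 (31.7%) below and 6 (14.6%) above, with a median of -0.06, and NCL, which encodes nucleolin, had 18471 against 20002, a ratio of 1.07 (interval 1.05 to 1.09). Their lowest, RIOK2 (15 against 6), and highest, MDN1 (10 against 19), had intervals that included 1. RNA polymerase I genes had 3 (25%) below and 3 (25%) above of 12, near the share of all kept genes, and a median of 0. The largest subunit gene POLR1A had 149 against 243, a ratio of 1.61 (interval 1.31 to 1.99). PTRF was lowest at 250 against 80, and TWISTNB most abundant at 2211 against 2463.

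Regulators of ribosomal protein mRNAs lay on both sides. Of 12 kept genes of mTORC1 and of TOP control, 3 (25%) had an interval below 1 and 6 (50%) above, with a median of 0.19. MYC, which drives ribosome production, had 1379 counts with V1 and 1018 with V4, 1.37-fold lower (interval 1.27 to 1.49). EIF4EBP1, an inhibitor of cap-dependent initiation that mTORC1 phosphorylates, had 5257 against 4229, 1.26-fold lower (interval 1.21 to 1.31). MTOR itself, the highest, had 14 against 28. Among 6 kept p53 targets, 2 (33.3%) were below and 1 (16.7%) above, with a median of 0. GDF15, the most abundant, had 136312 against 119328, 1.16-fold lower (interval 1.15 to 1.17). BAX was lowest at 750 against 648, and SESN1 highest at 47 against 62, with an interval that included 1. Among 10 kept chaperone and import genes for ribosomal proteins, 1 (10%) was below and 3 (30%) above, with a median of 0.04, and the import receptor gene IPO7 had 3144 against 4211, a ratio of 1.32 (interval 1.26 to 1.38). BTF3 was also the lowest here, and NAP1L1 the most abundant at 3951 against 4068, with an interval that included 1. None of the snoRNA host genes listed was found in the table.

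**Figure D4:**
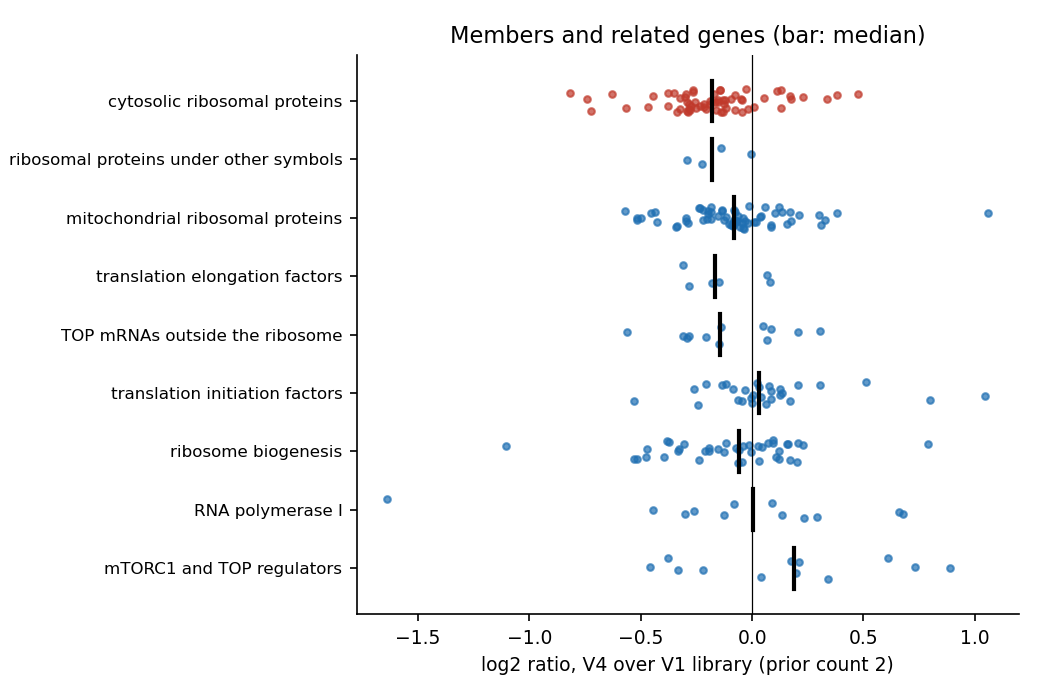
Log2 ratio of V4 over V1 (horizontal axis, prior count 2) for every kept gene of the cytosolic ribosomal protein genes (red) and of 8 lists of related genes (blue), with a bar at each median. The median was -0.18 for the cytosolic genes, -0.08 for the mitochondrial ribosomal protein genes and 0.03 for the initiation factors.

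Ribosomal protein genes are short, and short genes as a whole were lower in the V4 library. The median coding length was 448 bases over the 64 genes (range 153 to 1281) and 1260 over all kept genes. Over 8030 kept genes, Spearman's rho of the log2 ratio was 0.21 with coding length, 0.29 with transcript length and -0.35 with GC content, as a description across genes of the same pair of libraries. Removing the transcript length trend left the ribosomal protein genes at the -0.07 given above. Their median was -0.13 with a coding length trend removed (32 below, 4 above) and -0.15 with a GC trend removed (38 below, 1 above). GENCODE lengths of these genes can be uncertain, for example 7686 bases for RPL37 with a coding length of 291. Among the ribosomal protein genes themselves, rho of the ratio was -0.48 with GC content and 0.1 with coding length over 64 genes, and -0.43 and 0.38 over the 37 deeper ones. With 1 library each, a difference between libraries by length or GC content and one by transfection cannot be told apart.

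**Figure D5:**
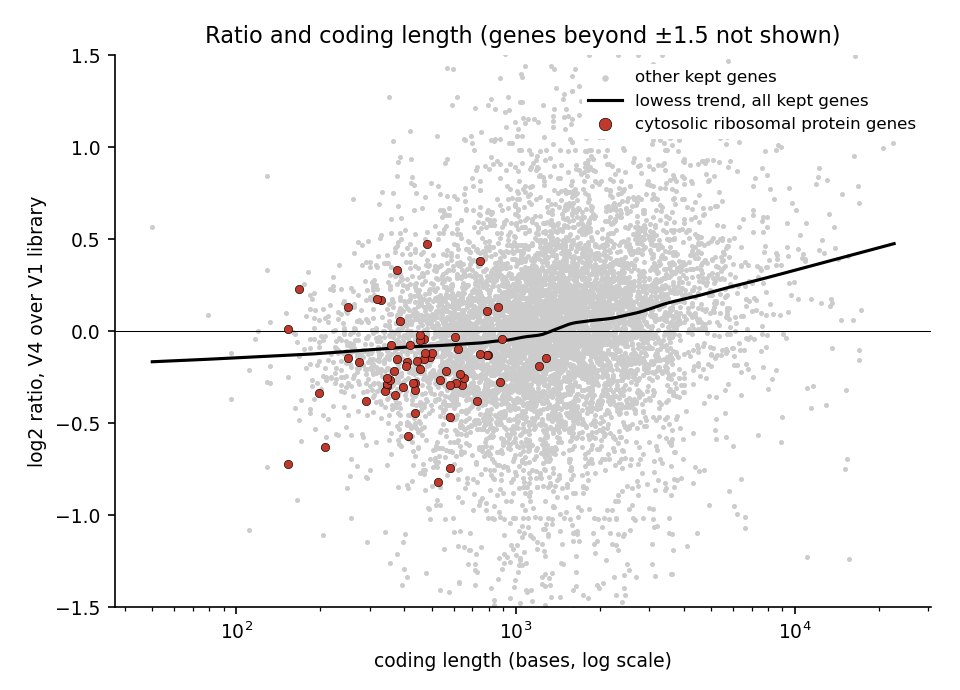
Log2 ratio of V4 over V1 (vertical axis, prior count 2) against coding length in bases (horizontal log axis) for kept genes (grey) and ribosomal protein genes (red), with the lowess trend over all kept genes. The trend lies below 0 at the lengths of most ribosomal protein genes, and their median of -0.18 lies below it at their median length of 448 bases.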

How the data were processed

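The authors deposited a table of read counts per gene symbol, and hg19 is the build in the submitters' processing notes. Which aligner, counting program and annotation were used, and how strand and reads with several matches were treated, is not stated in what was used here. Total RNA was enriched for poly(A) mRNA and read single-end, per the labels' protocols. Columns were tied to samples by name (columns not used: 1), so comparisons over the control were left out.

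Of 15512 rows, 22 carrying a calendar date were dropped, and counts of 21 repeated symbols were summed. TMM scaling (edgeR 4.0.16, R 4.3.3) and a mean CPM of at least 1 gave 8823 genes. Log2 ratios carry a prior count of 2, printed ratios and folds none. Exact 95% intervals were computed with scipy 1.17.1, and no p-value, since each group had 1 library. Reads lack molecular identifiers, so intervals and floors cover counting error only. A count of 0 allows up to 0.324 CPM (V1) and 0.312 CPM (V4), at 3 counts. The interval and the call rule were run on simulated counts that held counting error only, with the scaling known. That run cannot show how calls hold between real libraries.

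Coding lengths (without the stop codon, 91% of kept genes) and transcript lengths (91.5%) came from the longest APPRIS principal transcript in GENCODE v29, or the longest where none is marked (GRCh38), transcript numbers (96.6%) and start sites from RefSeq (GRCh38.p14), and trends from lowess (statsmodels 0.14.6, fraction 0.3). The members and lists were chosen with earlier results of these data known. Named in full by rule were the 5 lowest and 5 highest members by the interval bound nearest 1, the 5 highest per kilobase, copies with their parents and RPS6, and the highest, lowest and most abundant kept gene of each list; others were chosen after their values were seen. So were the pyrimidine-run criterion, the bins by counts, pseudogenes and transcripts, coding length as the basis of levels, and 4 further settings (coding length trend, GC trend, members with 1 RefSeq transcript, members at 1000 counts or more). Other settings covered scaling (DESeq2 1.42.0 factors among them), filters, priors, thresholds and the transcript length trend. Some genes, members among them, are not reported here by name, but stay in all counts, medians and sums.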

Additional observations from a re-analysis of the deposited data

How the results depend on the processing

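The direction of the ribosomal protein genes as a group, lower in the V4 library, held under every setting run. Their median log2 ratio of -0.18 stayed at -0.18 with DESeq2 factors, upper-quartile scaling, no filter and prior counts of 0.5 and 8. It was -0.21 with total counts, -0.2 at a mean CPM of at least 10, and -0.07 with the transcript length trend removed. Of the choices made after seeing the data, it was -0.13 with the coding length trend removed, -0.15 with the GC trend removed, -0.15 over members with 1 RefSeq transcript, and -0.17 over members at a mean of at least 1000 counts. The 42 intervals below 1 became 26 with the transcript length trend removed and 27 over members with 1 RefSeq transcript, where fewer genes were counted. The 3 above 1 became 8 with the transcript length trend removed, and 1 with the GC trend removed or over members with 1 RefSeq transcript. With total counts they were 45 and 2. The 4 genes at least 1.5-fold lower became 23 at 1.2-fold, where 14.5% of all kept genes passed, 0 at 2-fold, and 0 over members at a mean of at least 1000 counts. The ratio of summed shares, 0.851, was 0.876 without mitochondrially encoded genes in the totals and 0.839 without the 5 most abundant members. RPS27L turned to -0.03 with the transcript length trend removed and was 0.23 with the coding length trend removed. Of the 45 members with an interval on either side of 1, 17 lost that call with the transcript length trend removed (2 of them were then higher by their interval), 10 with the coding length trend removed, 8 with the GC trend removed and 1 with total counts. RPS6, RPL27 and RPS4X were among the 17, at -0.01, -0.01 and -0.03, while RPL30 went from -0.3 to -0.14 and RPS21 from -0.34 to -0.19 and kept theirs. Where a value moved without a change in the genes counted, the cause was not tested. Depth limits the 27 genes under 1000 counts, of which 14 have intervals that include 1. No paired analysis was possible because each group had 1 library.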
